A study of Homo sapiens with 30 samples.

Results

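The matrix metalloproteinases (MMPs), the ADAMTS proteinases, the ADAMTS-like proteins and the tissue inhibitors of metalloproteinases (TIMPs) were followed while H7 human embryonic stem cells (hESC) became cardiomyocytes. The genes were taken by name, as MMP, ADAMTS or ADAMTSL and a number, or TIMP1 to TIMP4. This gave 51 of the 41495 entries of the time-course table: 23 MMP, 19 ADAMTS, 5 ADAMTSL and 4 TIMP genes. The same names were found 21 times among the 4648 genes of the D3 sort table and 19 times among the 4825 genes of the D4 sort table.

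All cells came from the single line H7, and the hESC group is the line in E8 medium before induction. Cells of D1 (day 1) had entered cardiac induction with 12 µM CHIR99021, an inhibitor of the kinase GSK3 that switches on WNT signalling, given for 24 hours. It was replaced for 2 days by 5 µM IWP4, which blocks WNT secretion, and then by plain medium with B27 supplement. Cells were collected unsorted at D1, D2, D3, D4, D5, D6, D8, D10 and D15, and at day 31 as cardiomyocytes purified on a Percoll density gradient. PMESO cells were sorted at D3 for the receptor ROR2 and set against ROR2-negative cells. CMESO cells were sorted at D4 for ROR2 and PDGFRa and set against cells with ROR2 and without PDGFRa. Each of the 15 groups has 2 libraries, and the labels do not say whether these were separate cultures. The tables give 1 FPKM value (fragments per kilobase of transcript, scaled to library size) per gene and group. The time course thus carries no replicate error, and its differences are stated with no test. Read depth per library is not given in the tables used here.

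MMPs are zinc proteinases that cut collagens, laminins, fibronectin and other matrix proteins. Most are secreted as inactive precursors, and the membrane-type members sit on the cell surface, where MMP14 activates the MMP2 precursor. ADAMTS proteinases are secreted and cut proteoglycans such as versican, the ends of procollagens, or other matrix proteins, while ADAMTS-like proteins share their binding domains and lack the protease. TIMPs bind and block active MMPs, and TIMP3 also blocks several ADAMTS and ADAM proteinases. In the embryonic heart these enzymes shape the early matrix between heart muscle and endocardium and the later fibrous matrix.

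Of the 51 genes, 31 reached 5 FPKM in at least 1 time point, 9 peaked between 1 and 5 FPKM, and 11 stayed under 1 FPKM throughout. All 19 ADAMTS, 5 ADAMTSL and 4 TIMP genes reached 1 FPKM, and so did 12 of 23 MMP genes. Just inside that limit stood MMP28 (highest value 1.26 FPKM, at D8) and ADAMTS5 (1.56, in cardiomyocytes), and just outside it MMP1 (0.835, at D15) and MMP7 (0.628, in cardiomyocytes). The 11 genes under the limit were the collagenases MMP1, MMP8 and MMP13, the stromelysins MMP3 and MMP10, the elastase MMP12, the matrilysins MMP7 and MMP26, and MMP20, MMP21 and MMP27. Their highest values ran from 0.0682 FPKM (MMP27) to 0.835 (MMP1). None of the 40 genes at 1 FPKM or more was listed at 0 in any column. Of these 40, 23 (57.5%) had their highest value at D15 or in cardiomyocytes, against 30.3% of all 21715 genes that reached 1 FPKM.

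**Figure D1:**
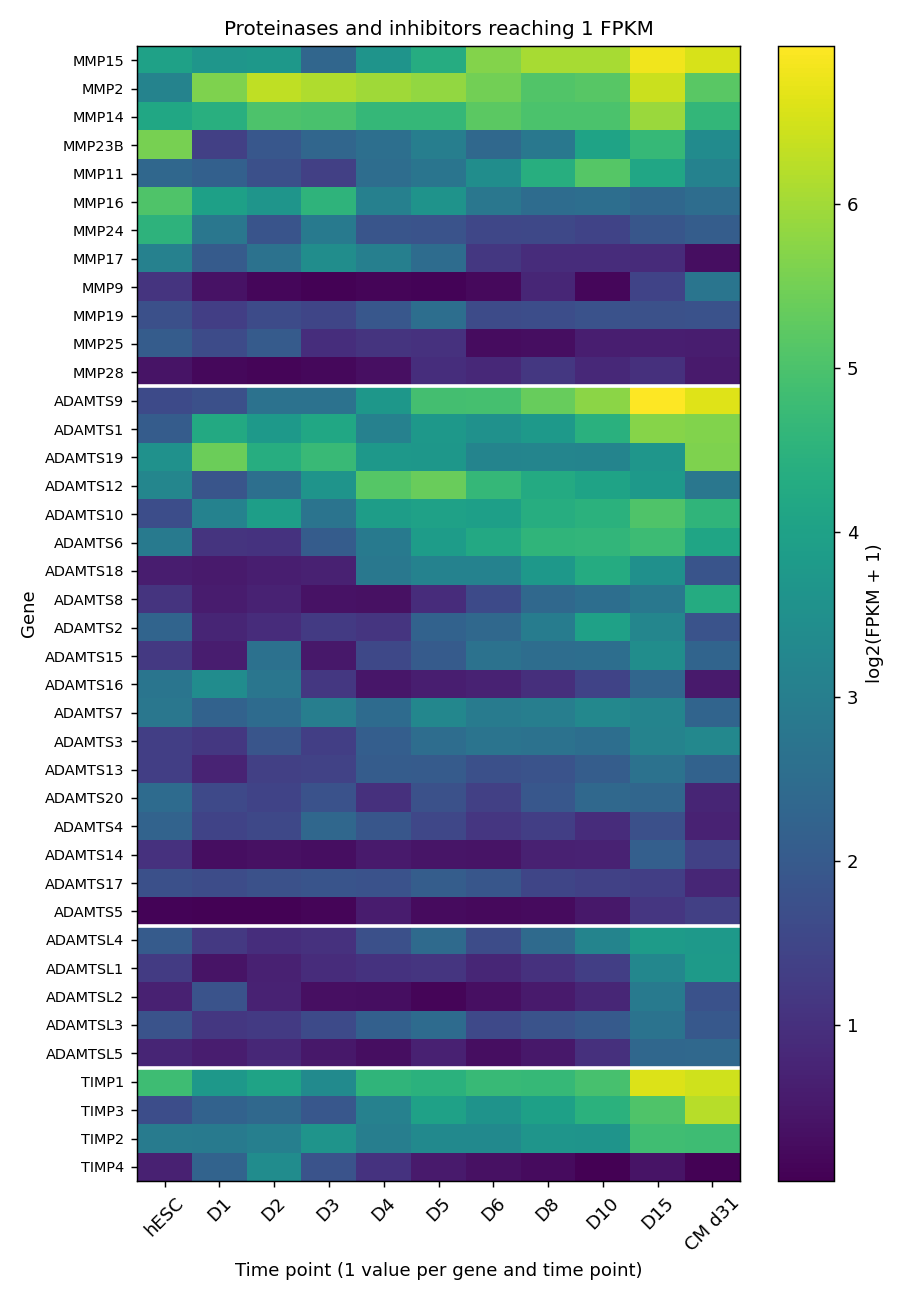
Levels of the 40 proteinase and inhibitor genes that reached 1 FPKM, as log2(FPKM + 1) (colour), by time point (columns) and gene (rows, grouped as MMP, ADAMTS, ADAMTSL and TIMP, each ordered by highest value; CM d31, day 31 cardiomyocytes). ADAMTS9, MMP15, TIMP1, MMP2 and TIMP3 reach the highest values, and 23 of the 40 genes have their highest value at D15 or in cardiomyocytes.

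Of the 11 genes under 1 FPKM, here called silent, 9 lie together. In the RefSeq gene table (GRCh38.p14), MMP7, MMP20, MMP27, MMP8, MMP10, MMP1, MMP3, MMP12 and MMP13 follow each other on chromosome 11 with no other protein-coding gene between them, and 0 of these 9 reached 1 FPKM. MMP26 lies elsewhere on chromosome 11 and MMP21 on chromosome 10. ADAMTS8 and ADAMTS15 form a pair of neighbours on chromosome 11 and ADAMTS1 and ADAMTS5 on chromosome 21, and all 4 reached 1 FPKM.

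Silent and expressed genes also differed in the sequence before their start sites. RefSeq promoters (GRCh38.p14) were found for 32 of the 51 genes, 7 of them silent and 25 at 1 FPKM or more, the latter with 26 promoters because ADAMTS10 has 2 starts. The 250 bases before the start were searched on both strands for 3 motifs. The TATA-box motif was spelled TATAAA. The motif of AP-1, the FOS and JUN factors, was spelled TGANTCA. The GC box was spelled GGGCGG. Matches to different motifs of these 3 cannot share a base, and a match is only a run of letters. The silent genes had a median G + C content of 36.4% (32.8% to 60.0%) and the expressed genes 73.4% (52.4% to 83.6%), against 58.0% over all 35116 promoters in the table. The TATA-box motif stood in 6 of 7 silent promoters and in 2 of 26 expressed ones (10.7% of all promoters). The AP-1 motif stood in 3 of 7 and 1 of 26 (6.57% of all). A GC box stood in 0 of 7 and 23 of 26 (42.6% of all). Since 6 of the 7 silent promoters are on chromosome 11, and 5 of them in the run of neighbours, they are not independent of each other. All 7 belong to MMP genes, while most expressed promoters belong to other families. The expressed MMP promoters (MMP11, MMP14, MMP15, MMP23B and MMP24) had 56.8% to 77.6% G + C. No promoter was found for the expressed MMP2, ADAMTS9 and ADAMTS1, among others, or for the silent MMP1, MMP3, MMP12 and MMP13.

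The 250 bases of 5 genes are shown for the contrast between silent genes (MMP7, MMP10) and genes above 50 FPKM (MMP14, MMP15, TIMP3), with matches to the 3 motifs in capitals, 5′ to 3′ on the gene's strand and ending at the base before the start (GRCh38.p14). They span chr11:102530748-102530997, minus strand (MMP7), chr11:102780629-102780878, minus strand (MMP10), chr14:22836335-22836584, plus strand (MMP14), chr16:58025504-58025753, plus strand (MMP15) and chr22:32801455-32801704, plus strand (TIMP3).
MMP7: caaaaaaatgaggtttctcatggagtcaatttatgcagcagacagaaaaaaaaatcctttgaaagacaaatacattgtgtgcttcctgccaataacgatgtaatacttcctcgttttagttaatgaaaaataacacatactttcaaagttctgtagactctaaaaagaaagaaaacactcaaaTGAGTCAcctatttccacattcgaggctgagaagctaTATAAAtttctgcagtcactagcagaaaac
MMP10: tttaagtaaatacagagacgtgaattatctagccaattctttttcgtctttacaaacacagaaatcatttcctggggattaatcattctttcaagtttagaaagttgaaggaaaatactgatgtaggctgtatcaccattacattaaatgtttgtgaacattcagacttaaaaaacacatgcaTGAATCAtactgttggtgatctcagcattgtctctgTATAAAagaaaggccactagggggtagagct
MMP14: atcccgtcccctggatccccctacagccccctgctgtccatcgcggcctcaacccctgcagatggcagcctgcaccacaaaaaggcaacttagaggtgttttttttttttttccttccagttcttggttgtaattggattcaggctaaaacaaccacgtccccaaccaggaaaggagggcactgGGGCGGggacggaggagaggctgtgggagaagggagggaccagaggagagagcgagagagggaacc
MMP15: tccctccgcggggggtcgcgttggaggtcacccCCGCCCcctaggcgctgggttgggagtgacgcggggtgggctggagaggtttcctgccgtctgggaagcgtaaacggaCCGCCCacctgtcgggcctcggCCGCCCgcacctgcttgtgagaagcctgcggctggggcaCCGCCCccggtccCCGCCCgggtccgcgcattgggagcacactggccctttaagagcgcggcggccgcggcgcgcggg
TIMP3: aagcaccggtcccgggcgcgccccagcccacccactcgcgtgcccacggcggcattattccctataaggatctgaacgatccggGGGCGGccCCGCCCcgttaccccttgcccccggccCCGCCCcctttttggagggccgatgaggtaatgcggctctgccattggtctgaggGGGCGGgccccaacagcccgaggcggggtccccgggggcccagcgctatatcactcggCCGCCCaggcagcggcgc
In MMP7 the AP-1 motif begins 67 bases and the TATA-box motif 30 bases before the start, and in MMP10 the distances are 67 and 31. In the other silent promoters with a TATA-box motif, the distance is 28 (MMP26), 72 (MMP20), 92 (MMP21) and 110 (MMP8). The AP-1 motif of MMP20 begins 112 bases before the start. MMP14 holds 1 GC box, and MMP15 and TIMP3 hold 5 each.

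**Figure D2:**
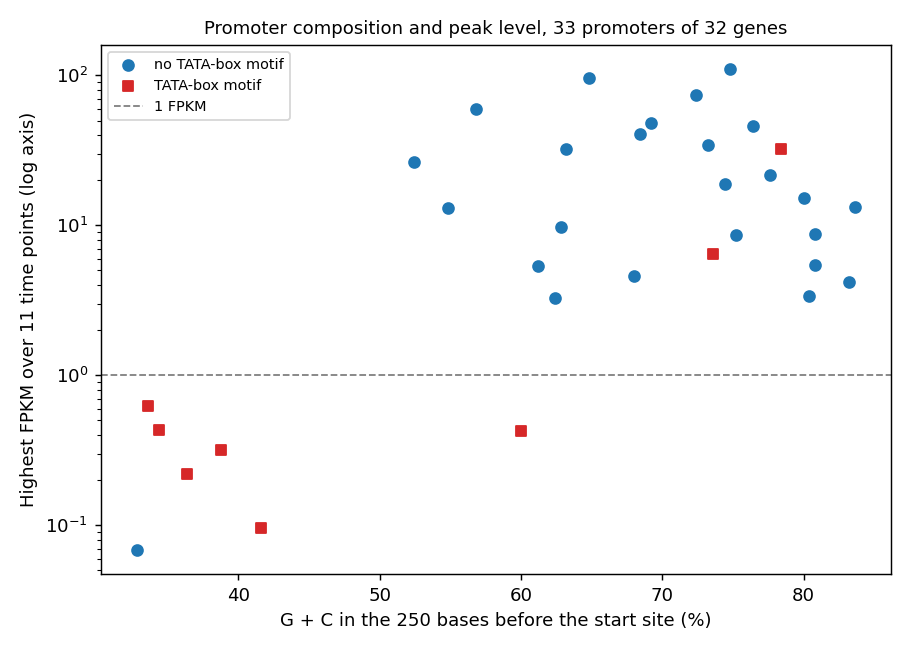
Highest FPKM over the 11 time points (log axis) against the G + C content of the 250 bases before the start site (percent), for 33 promoters of 32 genes; red squares hold a TATA-box motif and blue circles do not, and the dashed line marks 1 FPKM. The 7 promoters below the line lie at 32.8% to 60.0% G + C and 6 of them are red.

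Among the MMPs, the leading gene changed with time. The summed level of the 23 genes was 159 FPKM in hESC, 114 at D1, 194 at D10, 311 at D15 and 187 in cardiomyocytes. MMP23B was the highest MMP in hESC, MMP2 at D1 to D5, and MMP15 from D6 on.

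MMP2, the secreted gelatinase A, stood at 7.86 FPKM in hESC, 48.3, 77.1, 69.5, 61.4, 55.9 and 43.5 from D1 to D6, 33.2 at D8, 34.9 at D10, 83.6 at D15 and 35.6 in cardiomyocytes. It thus had 1 high phase at D2 and D3 and another at D15, and held 4.96% of the summed MMP level in hESC, 50.9% at D2 and 17.9% at D10. On the log2(FPKM + 1) scale, where a difference of 1 is 2-fold and low genes are understated, D1 was 2.48 above hESC. MMP14, the membrane-type enzyme that activates it, stood at 16.9 FPKM in hESC, 20.1, 31.7, 30.4, 24.1, 24.2 and 36.2 from D1 to D6, 30.9 at D8, 31.3 at D10, 59.7 at D15 and 23.8 in cardiomyocytes. Its level moved less, and in each of the 11 columns it was at 16.9 or more. The other gelatinase, MMP9, stood at 1.15 FPKM in hESC, 0.299, 0.121, 0.0593, 0.115, 0.09498 and 0.1797 from D1 to D6, 0.722 at D8, 0.124 at D10, 1.72 at D15 and 5.65 in cardiomyocytes, so it was at 1.72 or less in every column but the last.

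MMP15, another membrane-type enzyme, stood at 15.01 FPKM in hESC, 11.9, 12.3, 4.07, 11.3, 19.2 and 50.6 from D1 to D6, 65.4 at D8, 65.6 at D10, 111 at D15 and 91.4 in cardiomyocytes. It was lowest at D3 and higher at each time point from D3 to D15, and held 2.68% of the summed MMP level at D3 and 48.8% in cardiomyocytes. MMP11, a furin-activated enzyme known from stroma around tumours and remodelling tissue, stood at 4.16 FPKM in hESC, 3.49, 2.36, 1.55, 4.699, 5.702 and 9.75 from D1 to D6, 19.98 at D8, 34.5 at D10, 16.6 at D15 and 7.62 in cardiomyocytes. Its peak was at D10, before that of MMP15.

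The remaining membrane-type genes went the other way. MMP16 stood at 32.03 FPKM in hESC, 14.9, 11.5, 22.3, 7.35, 11.1 and 5.89 from D1 to D6, 4.66 at D8, 4.83 at D10, 4.099 at D15 and 4.75 in cardiomyocytes. MMP24 stood at 21.8 FPKM in hESC, 5.91, 2.599, 6.51, 2.68, 2.55 and 1.895 from D1 to D6, 1.92 at D8, 1.6996 at D10, 2.73 at D15 and 3.24 in cardiomyocytes. Both were highest in hESC and had a second, smaller high at D3. MMP17, anchored to the membrane by a glycolipid, stood at 7.48 FPKM in hESC, 3.06, 5.25, 9.78, 7.14, 4.61 and 1.27 from D1 to D6, 0.891 at D8, 0.893 at D10, 0.877 at D15 and 0.2402 in cardiomyocytes. MMP25, with the same kind of anchor, was highest in hESC (3.19) and lowest at D6 (0.214). In cardiomyocytes against hESC, 4 of the 6 membrane-type genes were at least 2-fold lower and 1, MMP15, higher (16.9% and 18.7% of all 21715 genes that reached 1 FPKM), with log2 differences of -2.52 (MMP16), -2.42 (MMP24), -2.77 (MMP17), -1.46 (MMP25) and 2.53 (MMP15). MMP24 and MMP25 share 21.8% and 35.2% of their exonic bases with other genes in GENCODE 29, and the strand setting of the counting is not given in the sources used here, so reads from these partners cannot be told apart from theirs. The antisense entry MMP24-AS1 was measured at 12.9 FPKM before induction, 4.26 at D1 and 17.3 in cardiomyocytes.

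MMP23B stood at 45.8 FPKM in hESC, 1.55, 2.78, 4.07, 4.98, 7.11 and 4.23 from D1 to D6, 6.11 at D8, 15.8 at D10, 24.6 at D15 and 9.404 in cardiomyocytes. Its difference was the largest of the 51 in the step from hESC to D1, -4.20 on the log2 scale. Its value is uncertain, because the pseudogene MMP23A on the same chromosome is a near-identical copy. MMP19 was at 1.52 to 4.81 FPKM throughout, highest at D5, and MMP28 (epilysin) at 0.108 to 1.26.

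The TIMPs took a larger place late. TIMP1 stood at 27.05 FPKM in hESC, 12.2, 15.8, 9.34, 22.6, 20.9 and 25.3 from D1 to D6, 24.9 at D8, 30.03 at D10, 96.3 at D15 and 86.9 in cardiomyocytes. TIMP2, which also takes part in the activation of MMP2 by MMP14, stood at 6.61 FPKM in hESC, 6.47, 7.24, 11.5, 7.01, 9.07 and 9.09 from D1 to D6, 11.6 at D8, 11.3 at D10, 27.7 at D15 and 27.1 in cardiomyocytes. TIMP3, the inhibitor bound to the matrix, stood at 2.22 FPKM in hESC, 3.69, 4.25, 2.799, 7.56, 15.2 and 11.1 from D1 to D6, 14.6 at D8, 21.2 at D10, 32.4 at D15 and 74.1 in cardiomyocytes. These 3 genes had their lowest values between hESC and D3 and their highest at D15 or in cardiomyocytes. TIMP4 ran against them and stood at 0.613 FPKM in hESC, 3.77, 9.73, 2.498, 1.08, 0.455 and 0.276 from D1 to D6, 0.196 at D8, 0.0372 at D10, 0.347 at D15 and 0.0757 in cardiomyocytes. It peaked at D2, in the early high phase of MMP2, and was at 0.455 FPKM or less from D5 on.

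The summed TIMP level was 36.5 FPKM in hESC, 26.1 at D3, 62.5 at D10, 157 at D15 and 188 in cardiomyocytes. Set over the summed MMP level of the same column, this is a ratio of 0.2302 in hESC, 0.172 at D3, 0.322 at D10, 0.504 at D15 and 1.004 in cardiomyocytes. The ratio is taken within a column, so it does not depend on the scaling between columns. It compares RNA levels, not proteins or activity. TIMP1 held the largest part of the TIMP sum in every column except D3, where TIMP2 did, and TIMP3 held 6.08% of it in hESC and 39.4% in cardiomyocytes.

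**Figure D3:**
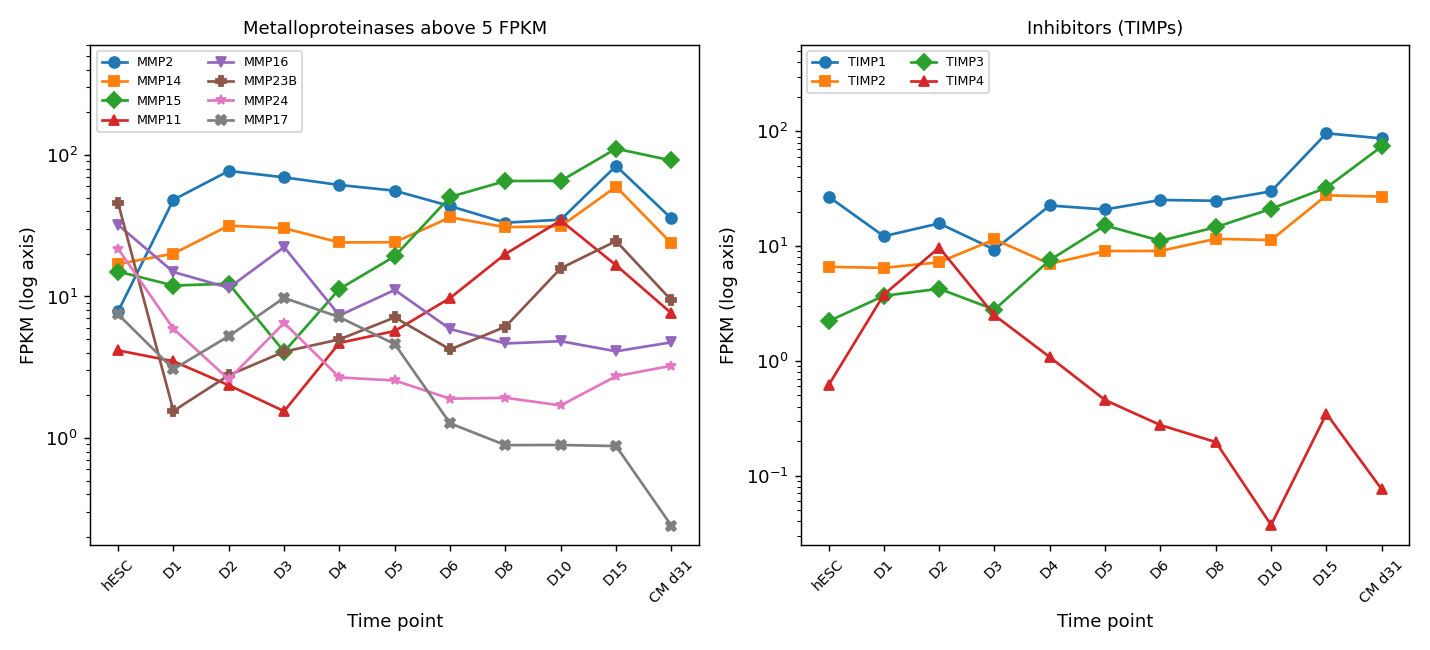
FPKM (log axis) of 8 MMP genes (left) and the 4 TIMP genes (right) at the 11 time points, 1 value per gene and time point (CM d31, day 31 cardiomyocytes). MMP2 goes from 7.86 to 77.1 between hESC and D2, MMP15 passes it at D6, and TIMP4 is the TIMP that ends lower than it began.

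ADAMTS9 and ADAMTS1, proteoglycanases that cut versican, reached the highest values of the ADAMTS family. ADAMTS9 stood at 2.01 FPKM in hESC, 2.35, 5.29, 5.25, 12.2, 28.8 and 29.6 from D1 to D6, 39.5 at D8, 53.5 at D10, 123 at D15 and 98.4 in cardiomyocytes. It was the highest ADAMTS gene from D6 on, with 3.05% of the summed ADAMTS level in hESC and 37.4% at D15. The antisense entry ADAMTS9-AS1, which shares exonic bases with it, was also highest late (1.10 FPKM in hESC and 18.3 in cardiomyocytes). ADAMTS1 stood at 3.21 FPKM in hESC, 17.96, 12.9, 17.1, 7.4995, 12.4 and 10.8 from D1 to D6, 12.9 at D8, 20.7 at D10, 50.7 at D15 and 49.2 in cardiomyocytes, with an early plateau at D1 to D3 and a higher late one.

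Less abundant proteoglycanases followed other courses. ADAMTS8 stood at 1.14 FPKM in hESC, 0.488, 0.632, 0.301, 0.2798, 0.912 and 2.01 from D1 to D6, 4.25 at D8, 4.81 at D10, 6.06 at D15 and 18.6 in cardiomyocytes. ADAMTS15, its neighbour, stood at 1.305 FPKM in hESC, 0.533, 5.22, 0.415, 1.93, 3.07 and 5.31 from D1 to D6, 4.79 at D8, 4.89 at D10, 9.94 at D15 and 3.83 in cardiomyocytes, and its value at D2 lies between low ones at D1 and D3. ADAMTS20 (highest 4.57, hESC), ADAMTS4 (highest 4.08, D3) and ADAMTS5 (highest 1.56, cardiomyocytes) stayed under 5 FPKM. In cardiomyocytes against hESC, 5 of the 7 proteoglycanases were at least 2-fold higher (ADAMTS1, ADAMTS5, ADAMTS8, ADAMTS9 and ADAMTS15) and 2 lower (ADAMTS4 and ADAMTS20), against 18.7% and 16.9% of all genes.

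The COMP-cutting ADAMTS12 had its high point in the middle of the course and stood at 8.38 FPKM in hESC, 2.63, 4.93, 11.4, 34.3, 40.8 and 24.3 from D1 to D6, 18.4 at D8, 15.7 at D10, 12.7 at D15 and 5.93 in cardiomyocytes. It was the highest ADAMTS gene at D4 and D5. ADAMTS7, which cuts the same substrate, stood at 5.92 FPKM in hESC, 3.71, 4.55, 7.07, 4.49, 8.47 and 6.63 from D1 to D6, 7.11 at D8, 8.78 at D10, 7.95 at D15 and 3.85 in cardiomyocytes, within a narrower range. Of the procollagen N-proteinases, which trim the ends of fibrillar procollagens, ADAMTS2 stood at 3.86 FPKM in hESC, 0.706, 0.896, 1.33, 1.18, 3.68 and 4.23 from D1 to D6, 6.69 at D8, 15.1 at D10, 8.26 at D15 and 2.55 in cardiomyocytes, highest at D10. ADAMTS3 stood at 1.502 FPKM in hESC, 1.25, 2.69, 1.502, 3.305, 4.72 and 5.49 from D1 to D6, 5.36 at D8, 4.83 at D10, 7.77 at D15 and 8.63 in cardiomyocytes, highest in cardiomyocytes. ADAMTS14 peaked at D15 with 3.38, and was at 1.04 or less from hESC to D10.

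ADAMTS19, an orphan member without a settled substrate, was high at both ends of the differentiated course and stood at 10.6 FPKM in hESC, 41.4, 19.5, 25.4, 12.4, 12.1 and 7.93 from D1 to D6, 8.098 at D8, 8.02 at D10, 11.9 at D15 and 48.4 in cardiomyocytes. It was the highest ADAMTS gene in hESC and at D1 to D3. Its antisense entry ADAMTS19-AS1 had its 2 highest values in the same 2 columns (6.12 FPKM at D1 and 5.22 in cardiomyocytes). ADAMTS16 stood at 5.66 FPKM in hESC, 9.61, 5.78, 1.26, 0.377, 0.545 and 0.639 from D1 to D6, 0.993 at D8, 1.74 at D10, 3.997 at D15 and 0.466 in cardiomyocytes, with its high at D1 and its low at D4. ADAMTS18 was low until D3 and stood at 0.514 FPKM in hESC, 0.467, 0.559, 0.618, 6.11, 7.65 and 7.73 from D1 to D6, 12.4 at D8, 18.8 at D10, 10.5 at D15 and 2.62 in cardiomyocytes.

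ADAMTS6 and ADAMTS10, which act on fibrillin microfibrils, both ended above their start. ADAMTS6 stood at 6.26 FPKM in hESC, 1.11, 1.09, 3.2005, 6.42, 13.7 and 17.6 from D1 to D6, 22.9 at D8, 23.2 at D10, 26.6 at D15 and 16.4 in cardiomyocytes. ADAMTS10 stood at 2.24 FPKM in hESC, 7.58, 14.3, 5.52, 13.9, 15.2 and 14.3 from D1 to D6, 19.5 at D8, 21.1 at D10, 32.2 at D15 and 22.8 in cardiomyocytes. ADAMTS13, the protease of von Willebrand factor, stood at 1.54 FPKM in hESC, 0.666, 1.57, 1.64, 3.202, 3.13 and 2.34 from D1 to D6, 2.54 at D8, 3.27 at D10, 5.34 at D15 and 3.69 in cardiomyocytes. ADAMTS17 was nearly level until D6, with 2.14 to 3.28 FPKM, and was at 0.728 in cardiomyocytes.

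The 5 ADAMTS-like genes all stood higher at D15 than at D10. ADAMTSL4, a fibrillin-binding protein, stood at 3.11 FPKM in hESC, 1.29, 0.946, 1.05, 2.32, 4.45 and 2.16 from D1 to D6, 4.41 at D8, 7.98 at D10, 13.3 at D15 and 12.5 in cardiomyocytes. ADAMTSL1 stood at 1.37 FPKM in hESC, 0.342, 0.618, 0.914, 1.09, 1.19 and 0.735 from D1 to D6, 1.07 at D8, 1.51 at D10, 8.47 at D15 and 13.1 in cardiomyocytes. ADAMTSL2, another microfibril protein, stood at 0.595 FPKM in hESC, 2.53, 0.637, 0.251, 0.228, 0.1104 and 0.269 from D1 to D6, 0.454 at D8, 0.729 at D10, 6.42 at D15 and 2.44 in cardiomyocytes. ADAMTSL3 stood at 2.55 FPKM in hESC, 1.24, 1.34, 2.01, 3.499, 4.53 and 1.99 from D1 to D6, 2.54 at D8, 3.02 at D10, 5.41 at D15 and 2.89 in cardiomyocytes, and ADAMTSL5 at 0.2296 (D6) to 4.19 FPKM (cardiomyocytes). The summed ADAMTSL level was 14.3 FPKM at D10 and 37.8 at D15, and the summed ADAMTS level 212 and 330.0.

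**Figure D4:**
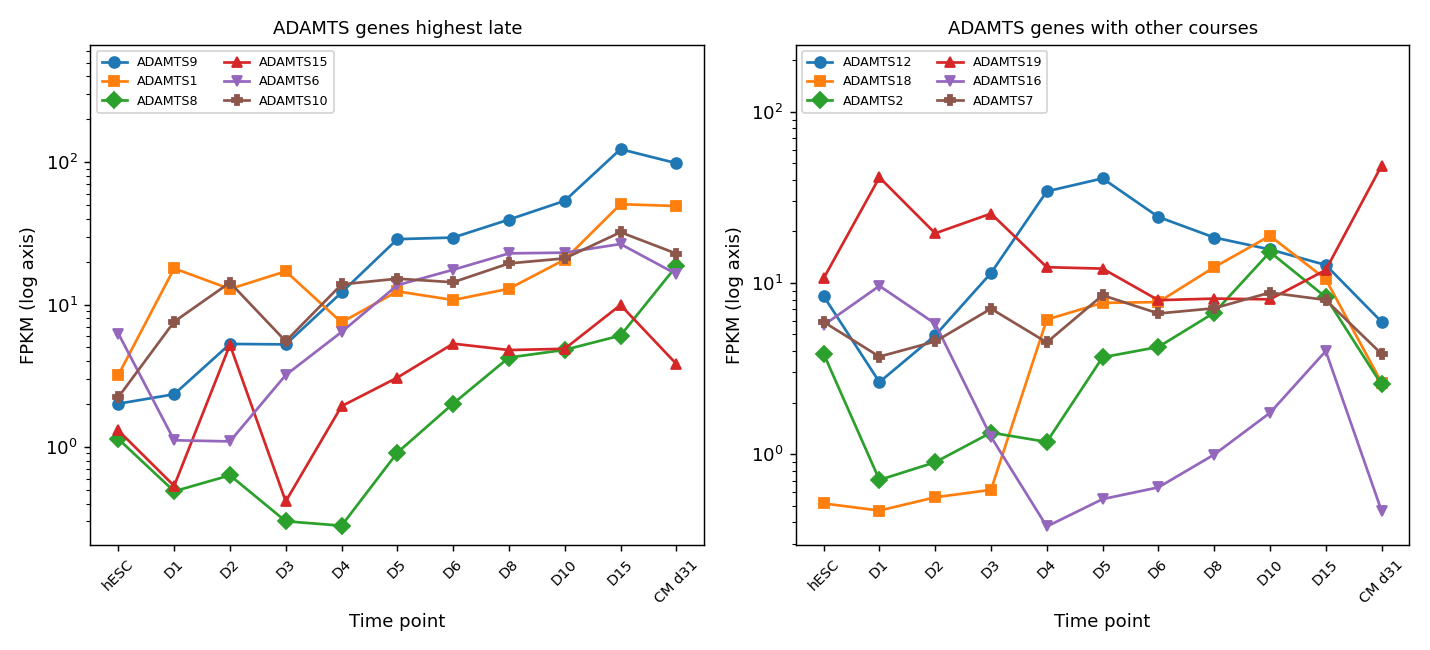
FPKM (log axis) of 12 ADAMTS genes at the 11 time points, 1 value per gene and time point (CM d31, day 31 cardiomyocytes). Left, 6 genes highest at D15 or in cardiomyocytes, led by ADAMTS9. Right, 6 genes with other courses, among them ADAMTS12 (highest at D5), ADAMTS18 and ADAMTS2 (highest at D10) and ADAMTS19 (high at D1 and in cardiomyocytes).

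The whole set was then counted in 4 comparisons, and a shift of 1 or more in log2(FPKM + 1) counted as a call. Between the ends of the course, 20 of the 51 genes were higher in cardiomyocytes than in hESC and 8 were lower. These are 50% and 20% of the 40 that reached 1 FPKM. Over the 21715 genes that reached 1 FPKM, 18.7% were called higher and 16.9% lower. All calls fell among the 40 genes that reached 1 FPKM, since a gene under 1 FPKM cannot differ by 1 on this scale. The largest increases were in ADAMTS9 (5.04), TIMP3 (4.54), ADAMTS1 (3.58) and ADAMTS8 (3.20). The largest decreases were in MMP17 (-2.77), MMP16 (-2.52), MMP24 (-2.42) and ADAMTS16 (-2.18). By family, 10 of 19 ADAMTS, 4 of 5 ADAMTSL and 3 of 4 TIMP genes were higher, and 3 ADAMTS genes were lower. Of the 12 MMP genes that reached 1 FPKM, 3 were higher and 5 lower, and the other MMP genes could not be called. The median over the 51 genes was 0.47 and over all 41495 entries 0.00. The summed FPKM over all entries was highest in the hESC column (1.43e+06) and lowest at D15 (617580). With D1 as the start, 21 genes were higher and 5 lower, against 18.4% and 18.1% of all.

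At D10 the culture had not been purified. Against hESC, 14 of the 40 genes that reached 1 FPKM were higher (35%, against 13.4% of all) and 7 lower (17.5%, against 13.7%). The median over the 51 was 0.15. The higher genes were led by ADAMTS9 (4.18), ADAMTS18 (3.71), MMP11 (2.78) and TIMP3 (2.78). MMP15 stood at 15.01 and 65.6 FPKM. The 7 lower genes were MMP16, MMP17, MMP23B, MMP24, MMP25, ADAMTS4 and ADAMTS16, all of which were also lower in cardiomyocytes. With D1 as the start, 17 were higher at D10 (12.3%) and 8 lower (13.9%).

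Calls between neighbouring time points, all out of the 40 genes that reached 1 FPKM, were uneven. The first step, from hESC to D1, had 6 genes higher (ADAMTS1, ADAMTS10, ADAMTS19, ADAMTSL2, MMP2 and TIMP4; 12% of all genes) and 8 lower (ADAMTS2, ADAMTS6, ADAMTS12, MMP16, MMP17, MMP23B, MMP24 and TIMP1; 11.1%). From D1 to D2, ADAMTS15 and TIMP4 were higher (2 genes, 2.66%) and ADAMTS19 and ADAMTSL2 lower (2 genes, 2.34%). From D2 to D3, ADAMTS6, ADAMTS12 and MMP24 were higher (3 genes, 3.09%) and 6 lower (5.04%), the lower ones including TIMP4, MMP15 and ADAMTS10. From D3 to D4, 9 were higher (6.79%) and 3 lower (6.3%). The 9 were ADAMTS9, ADAMTS10, ADAMTS12, ADAMTS15, ADAMTS18, MMP11, MMP15, TIMP1 and TIMP3, and the 3 were MMP16, MMP24 and ADAMTS1. From D4 to D5, ADAMTS2 and ADAMTS9 were higher (2 genes, 3.68%) and 0 lower (1.26%), from D5 to D6, 1 and 1 (MMP15 and MMP17, 1.21% and 6.18%), from D6 to D8, 0 and 0 (1.33% and 0.677%), and from D8 to D10, 2 and 0 (ADAMTS2 and MMP23B higher, 1.16% and 1.11%).

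From D10 to D15, 10 of the 40 genes that reached 1 FPKM were higher (25%, against 6.32% of all). MMP11 was the 1 lower gene (2.5%, against 9.51% of all), and the median over the 51 was 0.50. Higher were MMP2 (1.24), MMP9, TIMP1 (1.65), TIMP2 (1.22), ADAMTS1, ADAMTS9 (1.19), ADAMTS14, ADAMTSL1 (1.92), ADAMTSL2 and ADAMTSL5. Rescaling each column by the median ratio over genes of at least 1 FPKM in every column moved this comparison by 0.35. After rescaling, 16 of the 40 were higher and 0 lower, against 11.8% and 4.45% of all genes. The 6 added genes were MMP14, MMP15, ADAMTS4, ADAMTS15, ADAMTS16 and ADAMTSL4, and MMP11 stood at -0.67. Markers of more than 1 cell type stood higher in the same column. For stroma, of COL1A1, COL3A1, LUM, DCN, POSTN, PDGFRB and THY1, 5 of 7 were at least 2-fold higher at D15 than at D10, and their summed level was 875 FPKM at D10, 3067 at D15 and 951 in cardiomyocytes. Of 5 cardiomyocyte markers, 3 were higher at D15, with summed levels of 3119, 6561 and 9018 FPKM in these 3 columns. Against D3, 25 genes were higher at D15 (16% of all) and 5 lower (19.8%), and 13 were higher at D8 (9.14%) and 7 lower (6.79%). The part of these cell types in the D15 result was not tested. In bulk samples, fewer cells of a type and less RNA per cell cannot be told apart.

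From D15 to purified cardiomyocytes, 11 of the 40 genes that reached 1 FPKM were lower (27.5%, against 4.07% of all). There were 4 higher (10%, against 7.23% of all), and the median over the 51 was -0.22. At a pseudocount of 0.1, 16 were lower and 4 higher, against 12.4% and 11.2% of all genes. Of the 10 genes higher at D15 than at D10, MMP2 and ADAMTSL2 were among the lower ones here. Lower were MMP2 (-1.21), MMP11 (-1.03), MMP14 (-1.29), MMP23B (-1.30), ADAMTS2, ADAMTS4, ADAMTS15, ADAMTS16 (-1.77), ADAMTS18 (-1.67), ADAMTS20 and ADAMTSL2. Higher were ADAMTS19 (1.94), ADAMTS8 (1.47), MMP9 (1.29) and TIMP3 (1.17, and 0.84 after rescaling). TIMP1, TIMP2, ADAMTS1 and ADAMTS9 stood close to their D15 values (-0.15, -0.03, -0.04 and -0.32). After rescaling, which moved this comparison by -0.34, 15 were lower and 3 higher, against 7.93% and 3.00% of all genes. Against D10 in place of D15, 9 were higher (8.14% of all) and 6 lower (4.61%). This step joins the time to day 31 with the Percoll purification, and these cannot be told apart. Stromal markers were lower in the same column (5 of 7), and of 5 cardiomyocyte markers (MYH6, ACTN2, MYL7, TNNT2 and NKX2-5) 2 were higher. Of 5 measured endothelial markers 1 was lower, with a summed level of 10.5 and 3.56 FPKM. Their part in the result was not tested.

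The sort tables hold the authors' own comparisons, with FPKM values, a log2 fold change and a q-value, and list only genes with a q-value under 0.05. Absence from them says nothing of equality. Levels are not compared between these tables and the time course, and the q-values may measure technical spread only, since separate cultures are not stated. At D3 the ROR2 gene, on whose protein the cells were sorted, stood at 5.90 FPKM in ROR2-negative and 72.0 in PMESO cells in the authors' deposited table. Of the 51 genes, 21 were listed, against about 27.9% of the genes tested, a share estimated from the q-values, p-values and ranks. Of these 21, 13 were higher in PMESO and 8 in ROR2-negative cells, and of all 4648 listed genes 55.2% were higher in PMESO and 44.8% in ROR2-negative cells. Asking also for a 2-fold difference in log2(FPKM + 1) left 3 higher in PMESO and 5 in ROR2-negative cells. The share of all listed genes under this cut was not taken, so these 2 counts stand without a background.

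MMP2 was among the largest of these differences. In the authors' deposited table it stood at 24.1 and 93.2 FPKM in ROR2-negative and PMESO cells (log2 fold change 1.95, q-value 0.000375). Its locus in the authors' deposited table is chr16:55423612-55540603 (hg19). Larger still were ADAMTS15 (log2 2.16) and ADAMTS9 (log2 2.01), with 0.381 and 1.698 FPKM and 1.73 and 6.94 FPKM in the 2 populations in the authors' deposited table. ADAMTS12 (log2 1.72, chr5:33523640-33892297) stood at 6.91 and 22.7 FPKM in the authors' deposited table. MMP14, the activator of MMP2, differed in the same direction in the authors' deposited table, at 23.9 and 45.8 FPKM (log2 0.94). The other 8 genes higher in PMESO in the authors' deposited table, with FPKM in negative and positive cells, were TIMP3 (2.46 and 5.13), ADAMTS10 (5.76 and 10.98), ADAMTS13 (1.08 and 2.85), ADAMTS2 (1.51 and 3.13), ADAMTS3 (0.759 and 1.68), ADAMTS6 (2.13 and 3.78), MMP11 (2.38 and 4.37) and MMP15 (5.11 and 8.26).

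On the other side, MMP16 had the largest difference, at 23.96 and 4.03 FPKM in ROR2-negative and PMESO cells in the authors' deposited table (log2 -2.57, q-value 0.000375). TIMP4 stood at 2.73 and 0.7596 FPKM (log2 -1.85) and ADAMTS19 at 26.02 and 9.26 (log2 -1.49) in the authors' deposited table. The membrane-type genes MMP17 and MMP24 stood at 15.7 and 6.34 and at 10.96 and 4.78 FPKM in the authors' deposited table, also higher in ROR2-negative cells. ADAMTS14 (0.4797 and 0.195), MMP19 (3.34 and 1.75) and TIMP2 (12.7 and 9.96, log2 -0.35, q-value 0.0337) completed that side in the authors' deposited table. MMP16, MMP17 and MMP24, the membrane-type genes higher in the negative cells, are also among those that were lower at D10 than in hESC, and MMP14 and MMP15, higher in PMESO, are not.

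At D4 the sort gene PDGFRA stood at 8.28 FPKM in PDGFRa-negative and 303.9 in CMESO cells in the authors' deposited table. Of the 51 genes, 19 were listed (about 36.3% of the genes tested, estimated as before). Of these, 14 were higher in CMESO and 5 in PDGFRa-negative cells, and of all 4825 listed genes 47.5% were higher in CMESO and 52.5% in PDGFRa-negative cells. With the 2-fold difference asked for as well, 4 and 3 were left, again without a share of all listed genes under this cut. Among those higher in CMESO, ADAMTS15 had the largest difference, at 0.544 and 4.66 FPKM in PDGFRa-negative and CMESO cells in the authors' deposited table (log2 3.10, q-value 0.000269). Its neighbour ADAMTS8, under 1 FPKM in both populations, stood at 0.142 and 0.958 FPKM (log2 2.75, q-value 0.00139) in the authors' deposited table. The loci of the pair in the authors' deposited table are chr11:130274820-130298888 (ADAMTS8) and chr11:130318869-130346532 (ADAMTS15), both hg19. MMP2 stood at 22.998 and 96.2 FPKM (log2 2.06), MMP11 at 5.84 and 21.2 (log2 1.86) and TIMP3 at 4.003 and 12.4 (log2 1.63) in the authors' deposited table. The other 9 genes higher in CMESO in the authors' deposited table were ADAMTS12 (42.4 and 68.4), MMP14 (33.7 and 44.1), MMP15 (12.4 and 23.3), ADAMTS9 (15.6 and 22.6), MMP23B (6.12 and 10.3), ADAMTS3 (2.85 and 5.53), ADAMTS2 (2.01 and 3.44), ADAMTSL1 (0.475 and 1.21) and MMP28 (0.359 and 1.199).

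Higher in the PDGFRa-negative cells in the authors' deposited table were ADAMTS5, at 1.499 and 0.166 FPKM (log2 -3.17), and MMP17, at 9.52 and 2.11 FPKM (log2 -2.17). ADAMTS14 (1.05 and 0.2796), ADAMTS19 (15.4 and 5.76) and TIMP2 (12.97 and 7.38, log2 -0.81) were higher there too in the authors' deposited table. ADAMTS5 is thus listed in the opposite direction to the other proteoglycanases ADAMTS8, ADAMTS9 and ADAMTS15.

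The sorts share 14 of these genes, which is 66.7% of the 21 listed at D3 and 73.7% of the 19 listed at D4. Over all listed genes, the shared ones are 46.5% of the D3 list and 44.8% of the D4 list. All 14 had the same direction in both: ADAMTS2, ADAMTS3, ADAMTS9, ADAMTS12, ADAMTS15, MMP2, MMP11, MMP14, MMP15 and TIMP3 were higher in the positive cells, and ADAMTS14, ADAMTS19, MMP17 and TIMP2 in the negative cells. Over all 2161 genes in both tables the direction was the same for 75.2%. The populations are from different days and gates, and no test of the difference between sorts was run. The gates are related, since the D4 gate lies within ROR2-positive cells. PDGFRA was also listed in the D3 sort, at 6.80 FPKM in ROR2-negative and 91.9 in PMESO cells in the authors' deposited table (log2 3.75). Of the 14 genes, ADAMTS14 was under 1 FPKM in both D3 populations. ADAMTS9 had a log2 fold change of 2.01 at D3 and 0.54 at D4 in the authors' deposited table, while MMP11 had 0.88 and 1.86, and MMP2 1.95 and 2.06. TIMP2 and TIMP3 are listed in opposite directions in both sorts.

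**Figure D5:**
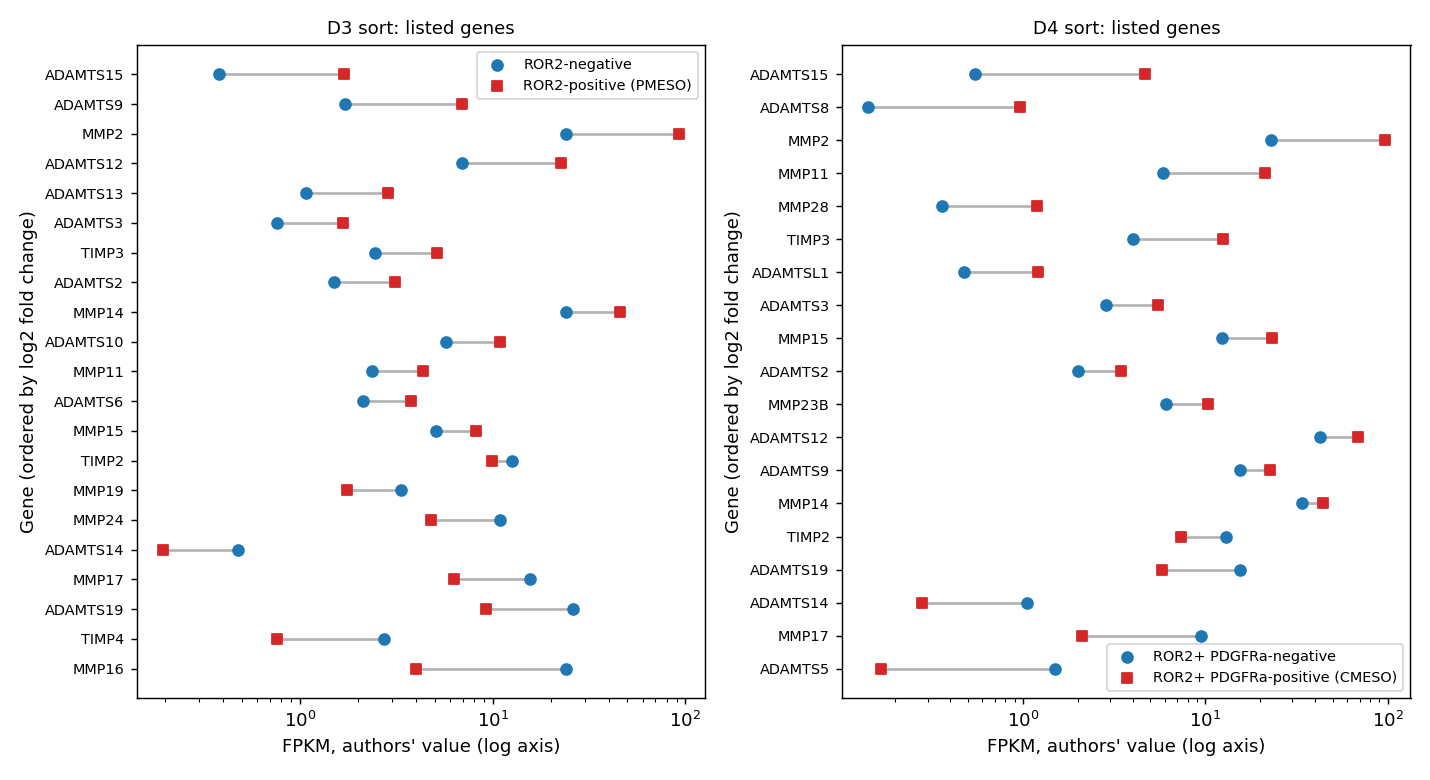
The authors' FPKM values (log axis) of the listed genes in the negative (blue circles) and positive (red squares) cells of the D3 sort by ROR2 (left, 21 genes) and of the D4 sort by PDGFRa among ROR2-positive cells (right, 19 genes), ordered by log2 fold change; 1 value per population. Rows where the red square lies to the right are higher in the positive cells, 13 of 21 at D3 and 14 of 19 at D4.

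Genes that act around these enzymes were taken from 3 lists. Of 20 activators and other inhibitors, 8 were higher and 4 lower in cardiomyocytes than in hESC (18.7% and 16.9% of all genes). At D15 against D10 the counts were 8 and 0 (6.32% and 9.51%), and in cardiomyocytes against D15 they were 2 and 7 (7.23% and 4.07%). The proteinase trap A2M stood at 0.714 FPKM in hESC, 14.6 at D10, 152 at D15 and 379.6 in cardiomyocytes. FURIN, which activates membrane-type MMPs and MMP11, stood at 7.73 in hESC and 40.4 at D15, and RECK, a membrane-bound MMP inhibitor, at 3.76 (D3) to 7.34 (D15). Of the 20, 14 spanned at least 4-fold over the course on the log2(FPKM + 1) scale, which understates low genes. The lowest and highest FPKM are given for 13 of them: FURIN (7.73 in hESC, 40.4 at D15), PLAU (1.58 at D4, 18.1 in hESC), PLAT (1.69 in hESC, 97.8 at D15), SERPINE2 (9.71 at D10, 327 at D2) and A2M (0.714 in hESC, 379.6 in cardiomyocytes). The rest were SPOCK1 (1.61 at D2, 30.3 in cardiomyocytes), SPOCK3 (0.1996 at D1, 15.4 at D4), TFPI2 (1.701 at D10, 18.4 in cardiomyocytes), PCOLCE (5.24 at D2, 54.7 at D6) and PCOLCE2 (1.21 in cardiomyocytes, 12.9 at D1), and THBS1 (17.2 at D2, 358 in cardiomyocytes), THBS2 (0.166 at D10, 23.9 at D1) and LRP1 (11.5 at D1, 86.6 at D15). Of these, the plasminogen activator gene PLAU was highest in hESC and PLAT at D15.

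Of 13 related metalloproteinases, 10 reached 1 FPKM, and in cardiomyocytes against hESC 3 were higher and 0 lower (18.7% and 16.9% of all genes). The sheddases ADAM10 and ADAM17 varied little (42.9 to 71.6 and 18.2 to 23.3 FPKM). The 4 that spanned at least 4-fold on the log2(FPKM + 1) scale were ADAM9 (13.2 at D2, 67.1 at D15), ADAM12 (0.125 at D1, 12.5 at D15), ADAM19 (2.55 in hESC, 24.5 at D15) and BMP1 (2.202 at D1, 26.3 at D15). Of 19 matrix substrates, 12 were higher and 2 lower in cardiomyocytes than in hESC (18.7% and 16.9% of all genes). At D15 against D10 the counts were 12 and 0 (6.32% and 9.51%), and in cardiomyocytes against D15 they were 0 and 10 (7.23% and 4.07%). VCAN, the versican gene and main substrate of the proteoglycanases, stood at 82.8 FPKM in hESC, 309 at D10, 658 at D15 and 436 in cardiomyocytes. ACAN, BCAN and NCAN, of the same proteoglycan family, reached at most 2.98, 3.45 and 1.197. COMP, the substrate by which ADAMTS7 and ADAMTS12 are grouped, reached at most 0.493 FPKM (D15). The substrates that spanned at least 4-fold on the log2(FPKM + 1) scale were VCAN (82.8 in hESC, 658 at D15), FN1 (29.3 in hESC, 2879.5 at D15), COL1A1 (6.05 at D2, 733 at D15), COL1A2 (15.99 in hESC, 366 at D15) and COL3A1 (0.293 at D1, 2037 at D15). The others were COL4A1 (16.8 in hESC, 285 at D15), COL4A2 (28.02 at D4, 363 at D15), LAMA1 (6.63 in cardiomyocytes, 78.2 at D10), LAMB1 (20.6 in hESC, 146 at D15) and HSPG2 (10.6 at D1, 157 at D15), and NID1 (8.51 at D4, 45.5 at D15), DCN (0.194 at D2, 48.6 at D15), FBN1 (2.22 in hESC, 114 at D15) and FBN2 (4.15 in hESC, 228 at D15).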

How the data were processed

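The time-course table holds 1 deposited FPKM value for each gene and time point, which covers 2 libraries. No header names the unit, which was inferred from the values and from Cufflinks in the submitters' processing notes. These also list hg19, TopHat2 (2.0.8b) and Bowtie2 (2.1.0.0). Ribosomal RNA had been removed from the input of 500 ng, per the labels' protocols. Annotation, strand and scaling: not given in the sources used here. In the sort tables, per the file headers, the authors' columns are FPKM, a linear ratio, the log2 fold change, a test score, the p-value and, last, the q-value. Their starts were raised by 1 to count from 1.

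The background was the 21715 genes that reached 1 FPKM anywhere in the course. Values were compared as log2(FPKM + 1) with pandas 2.3.3. The calling was tried on simulated 4-fold shifts in well-expressed genes only. It was thus not checked for 2-fold shifts or for genes of low level. Genes of at least 5 FPKM are given at every time point, the rest by range, and every listed gene of the sorts is named. The values of 1 gene of the activator and inhibitor list are not reported here. The genes and lists were chosen with earlier results of these data known. Limma per library, asked for in the design if libraries were apart, could not be run. Alternatives were a pseudocount of 0.1, no filter, rescaling by median ratio, protein-coding genes as background, and stricter q-values, levels and folds in the sorts.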

Additional observations from a re-analysis of the deposited data

How the results depend on the processing

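No paired analysis was possible because the tables give 1 value per group, and for the same reason no library could be left out. Dropping the filter on low values could not change the 8 counts of these genes in the 4 comparisons, since a gene under 1 FPKM cannot be called. The share of all genes called in cardiomyocytes against hESC became 9.78% higher and 8.83% lower. At a pseudocount of 0.1, 15 of these genes and 14.9% of all genes were higher at D15 than at D10, and 17 and 21.9% at D10 than in hESC. With a pseudocount of 0.1, the calls summed over the 10 steps went from 39 higher and 32 lower to 61 and 61. For the 39 and 32, the shares of all genes are given step by step above. At a pseudocount of 0.1 that share was not taken, so the 61 and 61 stand without a background. Rescaling turned the D15 against D10 counts from 10 higher and 1 lower to 16 and 0. Among single genes in the 4 comparisons, no called difference changed sign under either alternative. With a pseudocount of 0.1, 18 further differences were called and 0 lost; with rescaling 10 were gained and 2 lost (MMP11 and TIMP3, above). Protein-coding genes as background gave 19.1% higher and 18.8% lower in cardiomyocytes against hESC. In the sorts, asking also for 2-fold in log2(FPKM + 1) left 3 higher and 5 lower in the positive cells at D3, and 4 and 3 at D4. A q-value under 0.01 left 12 and 6 at D3, and 10 and 5 at D4. Asking for at least 1 FPKM in 1 population left 13 and 7 at D3, and 13 and 5 at D4. The share of all listed genes under these cuts was not taken.

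The following were chosen after seeing the data. At 4-fold, cardiomyocytes against hESC had 9 higher and 5 lower (6% and 5.11% of all genes), D10 against hESC 8 and 3 (3.69% and 3.84%), D15 against D10 1 and 0 (1.26% and 0.921%), and cardiomyocytes against D15 0 and 0 (0.751% and 0.801%). With D1 in place of hESC, 5 genes were lower in cardiomyocytes in place of 8. MMP24 and MMP25, which share over 20% of their exonic bases with other genes, were left out, as was MMP23B, which has a copy. Without them, 5 were lower in cardiomyocytes and 4 at D10 against hESC. Of the 40 genes that reached 1 FPKM, 17 share some exonic bases. Those kept include MMP9 (18.4%), MMP19 (17.4%) and ADAMTSL4 (14.4%), so reads from other genes are not excluded there. With cardiomyocytes in place of D15, 6 were lower than at D10, and with D10 in place of D15, cardiomyocytes had 9 higher and 6 lower. Read depth is not given in the tables, so the precision of values near 1 FPKM is unknown.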
